A study of Mus musculus with 16 samples.

Results

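The comparison set 8 PDA30364 tumors of mice given the agonist anti-CD40 Ab against 8 tumors of mice given control IgG, with GEM or Vehicle as a covariate, so that it asks what the antibody changed on average over both backgrounds. All 16 arrays of the series were used, 4 in each of the control (Vehicle and control IgG), anti-CD40 Ab (Vehicle and CD40 mIgG1), GEM (GEM and control IgG) and GEM/anti-CD40 Ab groups. GEM replicates 3 and 4 are labelled with 1 shared animal number, so that the 8 control IgG arrays may come from fewer than 8 mice. PDA30364 is 1 mouse pancreatic tumor line from a genetically engineered model, and every mouse was a C57BL/6-Ly5.1 animal aged 6 to 12 weeks that carried it under the skin of the flank, injected with Matrigel, so that the tumors do not lie in the pancreas. The antibody was a chimeric version of clone 3/23 with a mouse IgG1 tail, given on treatment days 3, 4, 6 and 14, and gemcitabine (GEM), a cytidine analog that stops DNA strands from growing, was injected at 120 mg kg-1 on treatment days 1, 5 and 12. Tumors were taken on day 22 or 23 after inoculation, and RNA from pieces of whole tumor was hybridised to Affymetrix mouse genome arrays. Each value is a log2 intensity that sums over tumor, immune and stromal cells, and fewer cells of a type and less RNA per cell cannot be told apart. The epithelial keratins Krt8 (13.70, mean log2 intensity over the 16 arrays) and Krt18 (13.39) were high in every tumor.

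CD40 is a receptor of the TNF receptor family on dendritic cells, macrophages, B cells and some endothelial cells. Its ligand sits on activated helper T cells, and binding recruits TRAF adaptors and turns on NF-kB, which in antigen-presenting cells raises costimulatory molecules, cytokines and antigen presentation. An agonist antibody stands in for that ligand, and in pancreatic tumors such antibodies are known for acting on macrophages as well as on T cell priming.

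Anti-CD40 Ab raised 126 of 45037 probe sets (0.280%) and lowered 41 (0.0910%) at an adjusted p under 0.05 (limma, Benjamini-Hochberg). With GEM replicates 3 and 4 averaged as 1 mouse, 16 were higher and 3 lower. Counted by gene, with the brightest probe set standing for each of 18193 genes, 78 rose (0.429%) and 24 fell (0.132%). The genes that rose changed by a median of 1.01 on the log2 scale, from 0.24 to 3.45, and 40 of them changed by at least 1. The genes that fell changed by a median of -0.47, from -1.31 to -0.22. Over all genes the median change was -0.02, and 7485 (41.1%) were above 0. Scaling each array to its 75th percentile gave 73 higher and 49 lower, so that the share of calls that were higher went from 75.4% to 59.8%, with a shift of the median change of all probe sets of -0.025.

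Whether a gene's arrays overlapped was looked at in each background. In 73 genes (0.401% of 18193) all 4 anti-CD40 Ab arrays lay above all 4 control arrays and all 4 GEM/anti-CD40 Ab arrays above all 4 GEM arrays, and in 23 genes (0.126%) they lay below in both. Among the genes that passed, 44 were higher and 12 lower in this way. The 12 genes with the largest change in each direction were taken from these. For them the lack of overlap was a condition of choice, and it adds no support to their p-values. The genes that rose included acute-phase and myeloid genes, interferon-stimulated genes, chemokines and granzyme B, and the plot of 16 genes by array shows them.

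**Figure D1:**
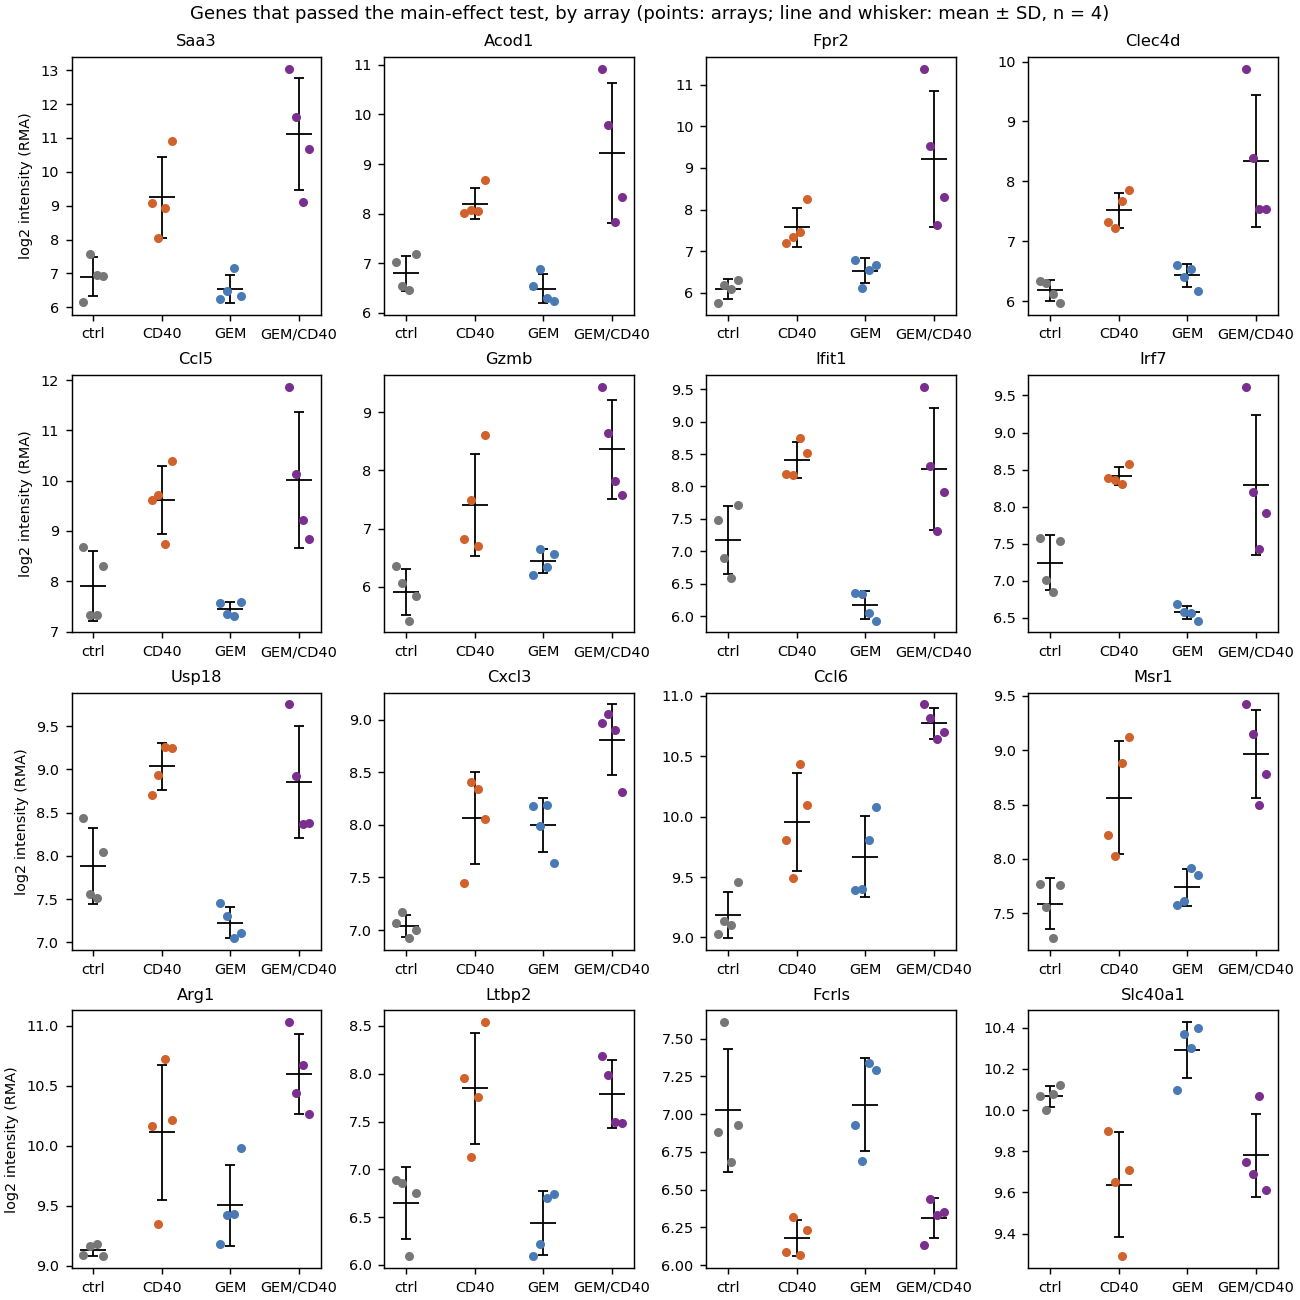
Log2 intensity (y axis) of 16 genes that passed the main-effect test in the 16 arrays. Points are arrays, with replicates 1 to 4 from left to right in each group, the horizontal line is the group mean and the whisker the SD (n = 4). In Saa3 the 8 anti-CD40 arrays lie at 8.05 or above and the 8 control IgG arrays at 7.56 or below.

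Saa3, an acute-phase serum amyloid that macrophages and epithelia make under inflammation, showed the largest rise of the 78 genes. It measured 6.17, 7.56, 6.95 and 6.93 in control tumors and 9.08, 8.05, 8.92 and 10.92 with anti-CD40 Ab. In GEM tumors it measured 6.24, 6.47, 7.15 and 6.32, and with GEM/anti-CD40 Ab 13.04, 11.63, 9.10 and 10.68. No antibody-treated array overlapped an untreated one, and the treated arrays spread far wider than the untreated ones. The log2 change was 3.45 with a standard error of 0.54, an 11-fold difference of geometric means (adjusted p = 0.0203, limma). Saa3 passed in 12 of the 16 fits that left out an array, with an adjusted p of up to 0.0599.

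The same myeloid pattern held for Acod1, the enzyme that makes itaconate in activated macrophages. It measured 7.02, 6.55, 6.46 and 7.18 in control tumors against 8.01, 8.08, 8.05 and 8.68 with anti-CD40 Ab, and 6.54, 6.88, 6.31 and 6.24 in GEM tumors against 10.92, 9.79, 7.84 and 8.33 with GEM/anti-CD40 Ab. Its arrays did not overlap in either background, and the log2 change was 2.06 ± 0.37 (SE, adjusted p = 0.0347). Fpr2, a formyl peptide receptor of phagocytes, rose by 2.08 (adjusted p = 0.0429) and Clec4d, a C-type lectin of myeloid cells, by 1.62 (adjusted p = 0.0251). Chil1, a chitinase-like secreted protein, rose by 2.36 (adjusted p = 0.0411). Acod1, Fpr2, Clec4d and Chil1 passed in 5 to 9 of the 16 fits that left out an array, with adjusted p-values of up to 0.101. Of the 17 inflammatory myeloid genes measured, 4 rose and none fell, all 17 were above 0, and the median was 0.55. Il6 (1.46, adjusted p = 0.114), Il1b (0.74, adjusted p = 0.0963) and Tnf (0.23, adjusted p = 0.190) did not pass.

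Interferon-stimulated genes, which cells switch on after type I interferon binds its receptor, gave the list with the most rises. Of 20 measured type I interferon response genes 9 rose, none fell, and all 20 were above 0 in each background, with a median of 0.98 beside -0.02 for all genes. Usp18, a protease that removes ISG15 and dampens the interferon receptor, measured 8.44, 7.56, 7.51 and 8.04 in control tumors and 8.70, 8.93, 9.26 and 9.25 with anti-CD40 Ab. It measured 7.45, 7.30, 7.05 and 7.11 in GEM tumors and 9.75, 8.92, 8.37 and 8.38 with GEM/anti-CD40 Ab. The groups did not overlap in either background, although control replicate 1 reached above 2 of the GEM/anti-CD40 Ab arrays. The log2 change was 1.39 ± 0.19 (SE, adjusted p = 0.0144), and Usp18 passed whichever array was left out, with an adjusted p of up to 0.0380.

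Irf7, the transcription factor that amplifies type I interferon, measured 7.58, 7.01, 6.85 and 7.53 in control tumors and 8.39, 8.36, 8.30 and 8.58 with anti-CD40 Ab. In GEM tumors it measured 6.68, 6.58, 6.57 and 6.46, and with GEM/anti-CD40 Ab 9.62, 8.20, 7.43 and 7.92. The anti-CD40 Ab tumors lay close together, while the GEM/anti-CD40 Ab tumors spread over more than 2 log2 units. Irf7 rose by 1.44 ± 0.23 (SE, adjusted p = 0.0230), Ifit1 and Ifit3, which bind foreign RNA or act beside it, rose by 1.67 (adjusted p = 0.0230) and 1.43 (adjusted p = 0.0309), and Cmpk2, a mitochondrial nucleotide kinase, rose by 1.47 (adjusted p = 0.0411). A second, dimmer Cmpk2 probe set changed by 0.59 and did not pass (adjusted p = 0.128). The oligoadenylate synthetase Oas1a (1.09), the viral polymerase inhibitor Rsad2 (1.14), Rtp4 (1.23) and the double-stranded RNA sensor Ifih1 (0.62) also rose. Apart from Usp18, these genes passed in 4 to 9 of the 16 fits that left out an array, with adjusted p-values of up to 0.116.

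Promoters were looked at because interferon-stimulated genes share a short element, the ISRE. Promoters 250 bases before to 50 after the start of a gene (RefSeq, GRCm38.p6) were found for 59 of the 78 genes that rose. A gene counted as holding a run if any of its promoters did. The ISRE-like run GAAANNGAAA, where N is any base and both strands were searched, stood in 14 of these 59 genes (23.7%). It stood in 524 of the 14452 measured genes with a promoter (3.63%), and, counted by promoter, in 3.44% of all 32851 promoters. Of the genes that fell, 17 had a promoter, and 0 of them held the run. For the GAS-like run TTCNNNGAA the shares were 23.7% of the genes that rose and 8.57% of all genes measured, and for the NF-kB-like run GGGANNTTCC 3.39% and 1.7%. These are matches of letters, with no test, and 1 of the ISRE-like runs, in Bst2, overlapped a GAS-like run. The following 60-base stretches of genes that rose lie upstream of the start, 5′ to 3′ on the strand of the gene, with ISRE-like runs on either strand in capitals. They show how the run was placed in interferon-stimulated genes (Ifit1, Ifit3, Rsad2, Bst2) and in Saa3.
Ifit1, chr19:34640760-34640819, plus strand: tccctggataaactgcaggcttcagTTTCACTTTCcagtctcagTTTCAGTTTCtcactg
Ifit3, chr19:34583348-34583407, plus strand: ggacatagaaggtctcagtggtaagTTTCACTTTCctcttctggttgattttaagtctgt
Rsad2, chr12:26456538-26456597, minus strand: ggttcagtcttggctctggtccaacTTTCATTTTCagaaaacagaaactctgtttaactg
Bst2, chr8:71537568-71537627, minus strand: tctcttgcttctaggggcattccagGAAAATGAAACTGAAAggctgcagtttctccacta
Saa3, chr7:46715767-46715826, minus strand: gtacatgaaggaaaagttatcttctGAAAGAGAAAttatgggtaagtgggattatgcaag

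Ifit1, whose stretch holds 2 separate runs, measured 7.49, 6.89, 6.59 and 7.72 in control tumors and 8.19, 8.17, 8.75 and 8.51 with anti-CD40 Ab. It measured 6.36, 6.34, 6.05 and 5.93 in GEM tumors and 9.54, 8.31, 7.32 and 7.92 with GEM/anti-CD40 Ab. Bst2, or tetherin, which holds budding viruses at the cell surface and whose stretch holds 2 overlapping runs, rose by 1.03 (adjusted p = 0.0443) and was picked out after its values were seen. It measured 10.18, 9.05, 9.29 and 10.20 in control tumors, 10.52, 10.35, 10.47 and 10.74 in anti-CD40 Ab tumors, 8.88, 9.68, 9.38 and 9.15 in GEM tumors, and 11.17, 10.77, 10.02 and 10.03 in GEM/anti-CD40 Ab tumors. Both genes were separated within each background, and for both the lower end of the antibody-treated arrays came from GEM/anti-CD40 Ab tumors.

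Interferon gamma response genes had the highest median of the 32 lists, 1.49, with all 19 above 0, but only the GTPase Igtp rose (1.61, adjusted p = 0.0480). Igtp measured 10.63, 8.81, 9.49 and 11.17 in control tumors and 11.15, 11.10, 10.96 and 11.47 with anti-CD40 Ab, and 8.89, 10.48, 9.30 and 9.20 in GEM tumors and 12.30, 11.76, 10.89 and 11.25 with GEM/anti-CD40 Ab. Control replicate 4 reached into the anti-CD40 Ab range, control replicates 1 and 4 stood above control replicates 2 and 3, and GEM replicate 2 stood above the other GEM arrays. The same arrays stood high in the list mean, at 9.45 and 9.73 for control replicates 1 and 4 against 7.92 and 8.27 for replicates 2 and 3, and at 9.18 for GEM replicate 2 against 7.77 to 8.12 for the other GEM arrays. The standard error of the log2 change had a median of 0.35 over these genes and 0.06 over all genes. Igtp did not pass in 13 of the 16 fits that left out an array, with an adjusted p of up to 0.116.

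Antigen presentation genes were higher in all 13 measured members of the MHC class I list, with a median of 0.76, and none passed by its brightest probe set. H2-K1, a class I heavy chain whose probe set can share sequence with related class I genes, was at 0.86 (adjusted p = 0.0587), the immunoproteasome subunit Psmb8 at 1.69 (adjusted p = 0.0635) and the peptide transporter Tap2 at 1.33 (adjusted p = 0.0628). Dimmer probe sets of H2-K1 (0.83, adjusted p = 0.0480) and H2-D1 (0.98, adjusted p = 0.0490) passed, and so did H2-Q5, a class I gene outside the list (1.37, adjusted p = 0.0480), all 3 with overlap in at least 1 background. These probe sets were picked out after their values were seen. Of the 11 class II genes 10 were above 0 with a median of 0.59, and none passed, with H2-Ab1 at 0.76 (adjusted p = 0.244). The class II median was 0.185 in Vehicle and 0.89 in GEM. H2-Ab1 was at 0.27 in Vehicle and 1.25 in GEM (interaction adjusted p = 0.890, limma).

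Chemokine and receptor genes gave 6 rises in 30 measured genes, and all 30 were above 0, with a median of 0.75. Cxcl3, a neutrophil-attracting chemokine, measured 7.07, 7.17, 6.92 and 7.0 in control tumors and 7.45, 8.41, 8.34 and 8.06 with anti-CD40 Ab. It measured 8.18, 7.99, 8.19 and 7.64 in GEM tumors and 8.97, 9.05, 8.90 and 8.31 with GEM/anti-CD40 Ab, so that the arrays were separated within each background while GEM tumors overlapped anti-CD40 Ab tumors. Its log2 change was 0.92 ± 0.14 (SE, adjusted p = 0.0169). Ccl6, a macrophage chemokine of mice, measured 9.03, 9.14, 9.10 and 9.46 in control tumors and 9.81, 9.49, 10.44 and 10.10 with anti-CD40 Ab, and 9.39, 9.40, 9.81 and 10.08 in GEM tumors and 10.93, 10.82, 10.64 and 10.70 with GEM/anti-CD40 Ab. It rose by 0.94 ± 0.13 (SE, adjusted p = 0.0144), and its second probe set rose by 0.91. Cxcl3 and Ccl6 passed whichever array was left out.

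Ccl5, which draws T cells and monocytes, rose by 2.14 ± 0.38 (SE, adjusted p = 0.0343). It measured 8.69, 7.32, 7.33 and 8.30 in control tumors, 9.61, 9.71, 8.75 and 10.40 in anti-CD40 Ab tumors, 7.56, 7.35, 7.31 and 7.58 in GEM tumors, and 11.87, 10.13, 9.22 and 8.84 in GEM/anti-CD40 Ab tumors. Every antibody-treated array was above every untreated one, by as little as 0.06 between control replicate 1 and anti-CD40 Ab replicate 3. The monocyte attractants Ccl2 (1.06) and Ccl7 (1.17) and the related Ccl9 (0.85) also rose. The interferon-induced Cxcl9 (2.18, adjusted p = 0.0555) and Cxcl10 (1.72, adjusted p = 0.0578), which attract activated T cells, did not pass. Ccl9 did not pass without anti-CD40 Ab replicate 4 or without GEM replicate 1 (adjusted p of up to 0.0577), and Ccl5, Ccl2 and Ccl7 passed in 5 to 7 of the 16 fits that left out an array.

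Macrophage genes rose in 3 of 18 measured members, and 17 were above 0, with a median of 0.48. That median was 0.175 in Vehicle and 0.85 in GEM. Msr1, a scavenger receptor, measured 7.77, 7.56, 7.27 and 7.76 in control tumors and 8.22, 8.03, 8.88 and 9.12 with anti-CD40 Ab, and 7.58, 7.61, 7.92 and 7.85 in GEM tumors and 9.42, 9.15, 8.50 and 8.78 with GEM/anti-CD40 Ab. Every antibody-treated array was above every untreated one. Msr1 rose by 1.10 ± 0.16 (SE, adjusted p = 0.0144), passed whichever array was left out, and a second of its 4 probe sets passed. Itgam, the integrin CD11b of myeloid cells, rose by 0.96 (adjusted p = 0.0390) and Lyz2, the lysozyme of myeloid cells, by 0.76 (adjusted p = 0.0444), each in 4 or 5 of the 16 fits that left out an array. Other macrophage genes differed in size and did not pass. Cd68 was at 0.575 (adjusted p = 0.0968, limma), with 0.28 in Vehicle and 0.87 in GEM. Adgre1 (F4/80) was at 0.06 (adjusted p = 0.941) and the growth factor receptor Csf1r at 0.33 (adjusted p = 0.527).

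Genes of alternative activation held 3 rises in 16 measured members. Arg1, the arginase of alternatively activated and suppressive myeloid cells, measured 9.09, 9.16, 9.18 and 9.08 in control tumors and 10.16, 9.35, 10.72 and 10.21 with anti-CD40 Ab. In GEM tumors it measured 9.18, 9.42, 9.43 and 9.98, and with GEM/anti-CD40 Ab 11.03, 10.44, 10.67 and 10.26. The 4 control values lay within 0.10 of each other, and the groups were separated in both backgrounds. Arg1 rose by 1.04 ± 0.16 (SE, adjusted p = 0.0196) and passed in 13 of the 16 fits that left out an array. Chil3, a chitinase-like protein, rose by 1.99 (adjusted p = 0.0462) with overlap in Vehicle, and the interleukin-4 receptor chain Il4ra by 0.25 (adjusted p = 0.0411), each in 4 or 5 of those fits. The mannose receptor Mrc1 was at 0.25 (adjusted p = 0.787), and the list median was 0.19. Complement genes rose in 3 of 15 members, namely the C1 inhibitor Serping1 (1.84, adjusted p = 0.0300), properdin, Cfp (1.26, adjusted p = 0.0411), and Itgam, while the 3 C1q chains were between 0.43 and 0.49 and did not pass. The complement median was 0.14 in Vehicle and 0.86 in GEM. A second, slightly dimmer Cfp probe set went the other way and did not pass (-0.23, adjusted p = 0.255, limma).

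Among lymphocyte genes, Gzmb, the cytotoxic protease granzyme B, measured 6.36, 6.06, 5.42 and 5.84 in control tumors and 6.82, 7.50, 6.70 and 8.61 with anti-CD40 Ab. It measured 6.21, 6.65, 6.34 and 6.57 in GEM tumors and 9.44, 8.64, 7.81 and 7.57 with GEM/anti-CD40 Ab. The antibody-treated arrays all lay above the untreated ones, and Gzmb rose by 1.71 ± 0.29 (SE, adjusted p = 0.0300, passing in 8 of the 16 fits that left out an array). With Ccl5 it made up the 2 rises among 19 measured cytotoxic and NK genes, where Nkg7 (1.46, adjusted p = 0.0579) and Gzma (1.34, adjusted p = 0.0743) did not pass. Of 19 T cell markers 16 were above 0, with a median of 0.35, and none passed. Cd3g was at 1.60 (adjusted p = 0.0708) and Cd3d at 1.13 (adjusted p = 0.0754), while Cd8a was at -0.03 and Cd4 at -0.04. Outside these lists the lymphocyte genes Ms4a4b (2.36, adjusted p = 0.0384, limma) and Gimap4 (1.28, adjusted p = 0.0384) rose, both picked out after their values were seen. Ms4a4b was not fully separated in both backgrounds, and its other, dim probe set did not pass (0.04, adjusted p = 0.808). The costimulatory receptor Tnfrsf9 (4-1BB) was the rise among 16 regulatory T cell and checkpoint genes (0.51, adjusted p = 0.0411), and Cd274, the PD-1 ligand PD-L1, was at 1.25 (adjusted p = 0.0692). Foxp3, the regulator of Treg cells, was at -0.08 (adjusted p = 0.718).

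Of 17 measured genes of CD40 signaling and NF-kB, 16 were above 0, with a median of 0.20, and none passed, while 11 had an unadjusted p under 0.05 (2715 of all 18193 genes). The list median was 0.035 in Vehicle and 0.305 in GEM. The smallest adjusted p was that of Cflar, an inhibitor of caspase 8, whose arrays did not overlap in either background (0.27, adjusted p = 0.0523). Cd40 measured 6.11, 6.21, 5.75 and 6.13 in control tumors and 6.04, 6.63, 5.89 and 6.80 with anti-CD40 Ab, and 6.04, 5.88, 5.62 and 6.24 in GEM tumors and 8.36, 7.50, 6.08 and 6.82 with GEM/anti-CD40 Ab. The groups overlapped in both backgrounds, and the change was 0.77 ± 0.27 (SE, adjusted p = 0.238), at 0.29 in Vehicle and 1.25 in GEM. The NF-kB inhibitor gene Nfkbia was at 0.23 (adjusted p = 0.166) and the adaptor Traf1 at 0.50 (adjusted p = 0.366). Dendritic cell genes had a median of 0.06 with 13 of 20 above 0, and B cell and immunoglobulin genes a median of 0.03 with 10 of 16 above 0, and no member of either list passed. The dendritic cell genes with the smallest p went both ways. Cd209a (-0.225, adjusted p = 0.116, limma) and Flt3 (-0.17, adjusted p = 0.152) were below 0, and Ccr7 (0.61, adjusted p = 0.156) was above. Il12b, a cytokine chain made by activated dendritic cells, was at 0.73 (adjusted p = 0.198). Its signal was low, with a mean log2 intensity of 3.81, and its other probe set was at 0.15 (adjusted p = 0.672).

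The plot of gene lists places these groups beside the others. Endothelial genes were above 0 in 14 of 14, with a median of 0.40, and none passed (Pecam1 at 0.63, adjusted p = 0.0741). Cell death genes rose in 3 of 18 members, the necroptosis effector Mlkl (0.63), the nucleic acid sensor Zbp1 (1.37) and Casp12 (1.06), and the glycolytic enzyme Pfkp (0.46) was the rise among 18 hypoxia and glycolysis genes. Fibroblast genes had a median of 0.20, granulocytic genes of 0.36 and leukocyte adhesion genes of 0.49, with no member passing. Tumor epithelium genes had a median of -0.07 with 3 of 14 above 0. DNA replication genes lay below 0 in 21 of 21, with a median of -0.10 (-0.01 in Vehicle and -0.18 in GEM), and mitotic genes in 19 of 21, with a median of -0.10, which was 0.004 without GEM/anti-CD40 Ab replicate 3. In Vehicle the mitotic median was 0.04, with 15 of 21 above 0, and in GEM -0.21, with 0 of 21 above 0. None of these 56 genes, nor any of sterol synthesis or oxidative phosphorylation, passed.

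**Figure D2:**
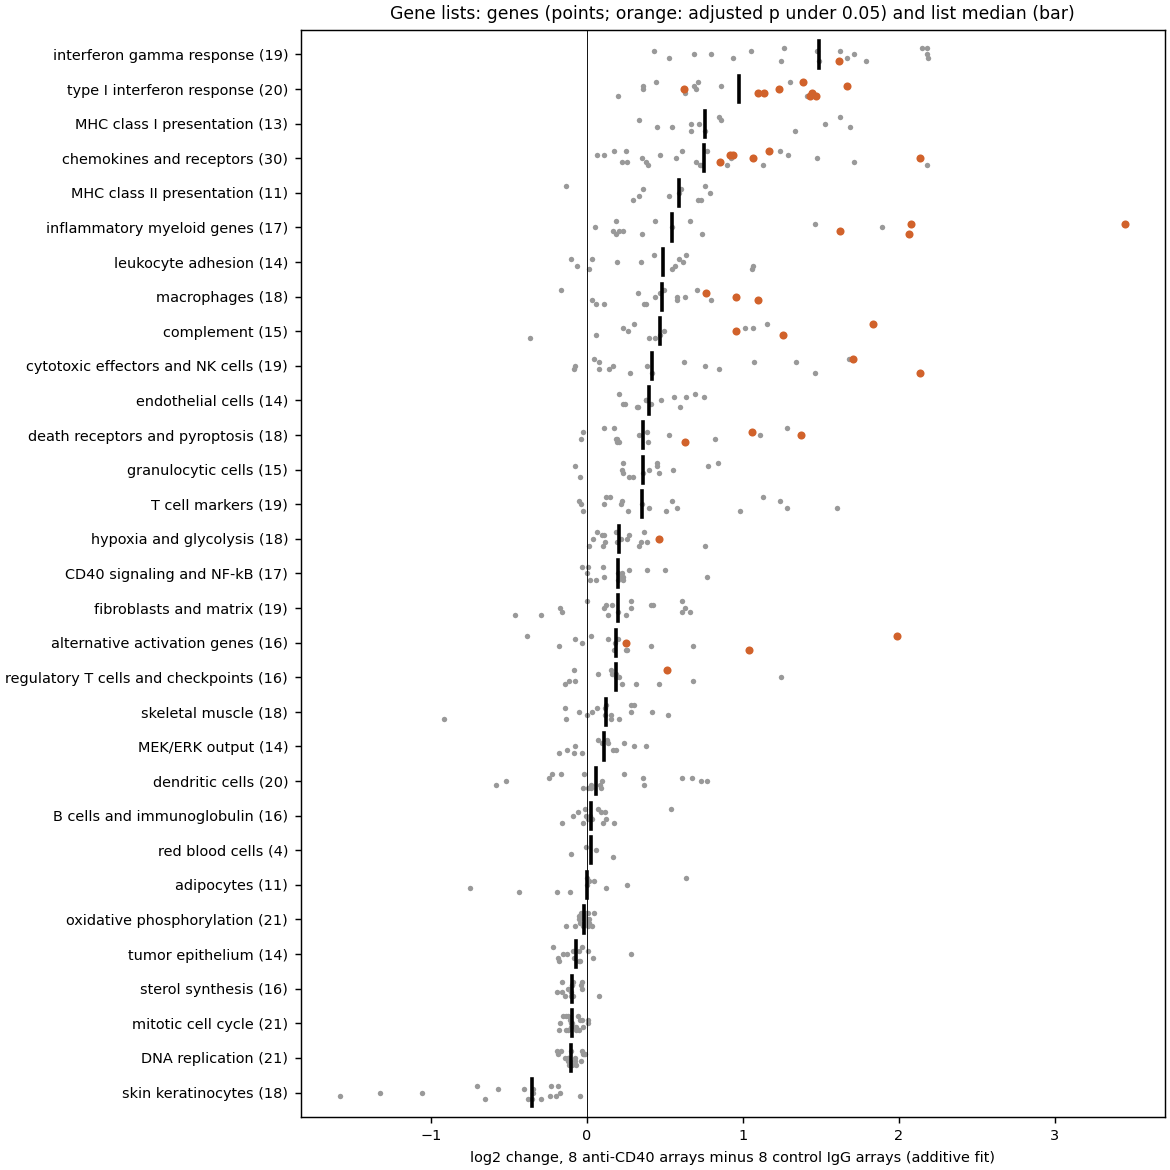
Log2 change between the 8 anti-CD40 Ab and the 8 control IgG arrays (x axis, additive fit) for each measured gene of the gene lists, with the number measured in parentheses. Points are genes, orange where the adjusted p was under 0.05, and the black bar is the list median, which runs from 1.49 for interferon gamma response to -0.35 for skin keratinocytes.

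Of the 78 genes that rose, 44 were in none of the lists. They included Ltbp2, a matrix protein that binds fibrillin (1.27, adjusted p = 0.0144), Angptl4, a secreted inhibitor of lipoprotein lipase (0.65, adjusted p = 0.0144), Trim15, a TRIM family ubiquitin ligase (0.60, adjusted p = 0.0144), and AA467197 (1.10, adjusted p = 0.0144), each separated in both backgrounds. These 4 were picked out after their values were seen, because with Usp18, Ccl6, Msr1, Cxcl3 and Fcrls they made up the 9 genes that passed whichever array was left out. Ltbp2 measured 6.89, 6.86, 6.09 and 6.75 in control tumors and 7.96, 7.13, 7.76 and 8.54 with anti-CD40 Ab, and 6.09, 6.22, 6.70 and 6.74 in GEM tumors and 8.19, 7.99, 7.49 and 7.48 with GEM/anti-CD40 Ab. Other rises outside the lists were the matrix metalloproteinases Mmp12 (0.84) and Mmp13 (0.82), the oncostatin M receptor Osmr (0.45), the receptor Calcrl (0.66), the peptide hormone apelin, Apln (0.51), the receptor Notch4 (0.50) and the sphingosine phosphate receptor S1pr1 (0.51), all picked out after their values were seen. Of these, Calcrl passed in 15 and Mmp13 in 11 of the 16 fits that left out an array, and the others in 2 to 6.

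All 24 genes that fell were outside the lists. Fcrls, an Fc receptor-like protein of resident macrophages and microglia, measured 6.88, 7.61, 6.68 and 6.93 in control tumors and 6.09, 6.32, 6.07 and 6.23 with anti-CD40 Ab. In GEM tumors it measured 6.93, 6.69, 7.34 and 7.29, and with GEM/anti-CD40 Ab 6.13, 6.44, 6.33 and 6.35. Every antibody-treated array was below every untreated one, and Fcrls fell by 0.80 on the log2 scale (SE 0.12, adjusted p = 0.0169). It passed whichever array was left out, without the 4 arrays named below for skin or muscle genes (adjusted p = 0.0364) and with skin and muscle list means as covariates (adjusted p = 0.0180).

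Slc40a1, the iron exporter ferroportin, measured 10.07, 10.00, 10.08 and 10.12 in control tumors and 9.90, 9.65, 9.29 and 9.71 with anti-CD40 Ab, and 10.10, 10.37, 10.30 and 10.40 in GEM tumors and 9.75, 9.69, 10.07 and 9.61 with GEM/anti-CD40 Ab. It fell by 0.47 (adjusted p = 0.0320), and its second probe set passed as well. Npr3, the clearance receptor of natriuretic peptides, fell by 0.65 (adjusted p = 0.0384), while its other 2, dimmer probe sets did not pass. Its signal was low, with a mean log2 intensity of 3.90 over the 16 arrays. Ptn, the growth factor pleiotrophin, fell by 1.31 (adjusted p = 0.0460) with overlap in Vehicle and by 0.71 in a dimmer probe set that did not overlap (adjusted p = 0.0144), and Ddc, the aromatic amino acid decarboxylase, by 0.83 (adjusted p = 0.0443), both picked out after their values were seen. The remaining Ptn probe set, between these in brightness, did not fall (0.05, adjusted p = 0.744, limma). Other falls were those of the matrix protein Matn2 (-0.41), the vitamin E carrier Afm (-0.48) and the serine hydroxymethyltransferase Shmt1 (-0.22). Other than Fcrls, these genes passed in 2 to 7 of the 16 fits that left out an array.

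Within 1 background no probe set passed, with 2739 at an unadjusted p under 0.05 in Vehicle (smallest adjusted p = 0.280) and 5211 in GEM (smallest adjusted p = 0.197, limma). The backgrounds share no array, so their changes could be set side by side. Of 641 genes higher in Vehicle at an unadjusted p under 0.05, 526 (82.1%) were above 0 in GEM, where 42.9% of all genes were, and 307 (47.9%) were also higher there at p under 0.05, against 6.67% of all genes. Of 681 genes lower in Vehicle, 476 (69.9%) were below 0 in GEM against 56.2% of all genes, and 113 (16.6%) were lower at p under 0.05 against 6.09%. Over 18193 genes, which are not independent and may have been normalized together, the changes in the 2 backgrounds correlated with r = 0.503.

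**Figure D3:**
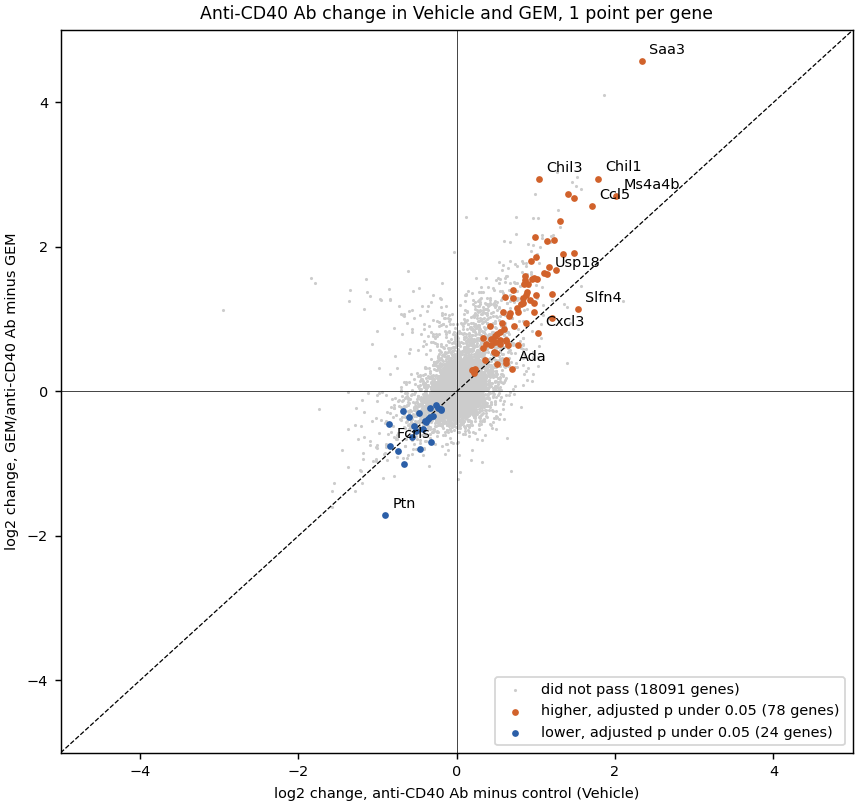
Log2 change with anti-CD40 Ab in Vehicle (x axis, anti-CD40 Ab minus control) against that in GEM (y axis, GEM/anti-CD40 Ab minus GEM), 1 point per gene, with the dashed line marking equal changes. Orange points (78) rose and blue points (24) fell in the main-effect test, and most orange points lie above the dashed line.

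The rises were larger in GEM by description, and a difference between the backgrounds did not pass a test. The genes that rose had a median change of 0.83 in Vehicle and 1.15 in GEM, and the change was larger in GEM for 69 of 78 (88.5%), against 52.1% of all genes. The interaction of anti-CD40 Ab and GEM passed for 0 of 45037 probe sets, with 2359 at an unadjusted p under 0.05 (smallest adjusted p = 0.890, limma). Saa3 changed by 2.34 in Vehicle and 4.57 in GEM (interaction adjusted p = 0.890), and Chil3 by 1.04 and 2.94 (interaction adjusted p = 0.890). Ada, adenosine deaminase, picked out after its values were seen, went the other way, at 0.69 and 0.32, and Cxcl3 was at 1.02 and 0.81. For type I interferon response genes the list means were 7.55 ± 0.39 in control, 8.26 ± 0.18 in anti-CD40 Ab, 7.10 ± 0.11 in GEM and 8.30 ± 0.61 in GEM/anti-CD40 Ab tumors (SD, n = 4), so that the groups with antibody lay close together and the GEM group lay lowest. For inflammatory myeloid genes they were 6.66 ± 0.10, 7.36 ± 0.20, 6.80 ± 0.06 and 8.02 ± 0.67.

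GEM/anti-CD40 Ab tumors varied most in the genes that rose, with a median SD of 0.42, against 0.31 in control, 0.28 with anti-CD40 Ab and 0.23 with GEM. GEM/anti-CD40 Ab replicate 1 was the highest of its group in 64 of the 78 genes and replicate 3 the lowest in 52. With anti-CD40 Ab alone, replicate 4 was the highest in 46 and replicate 2 the lowest in 50. Over all genes the median SD was between 0.10 and 0.13 in the 4 groups.

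**Figure D4:**
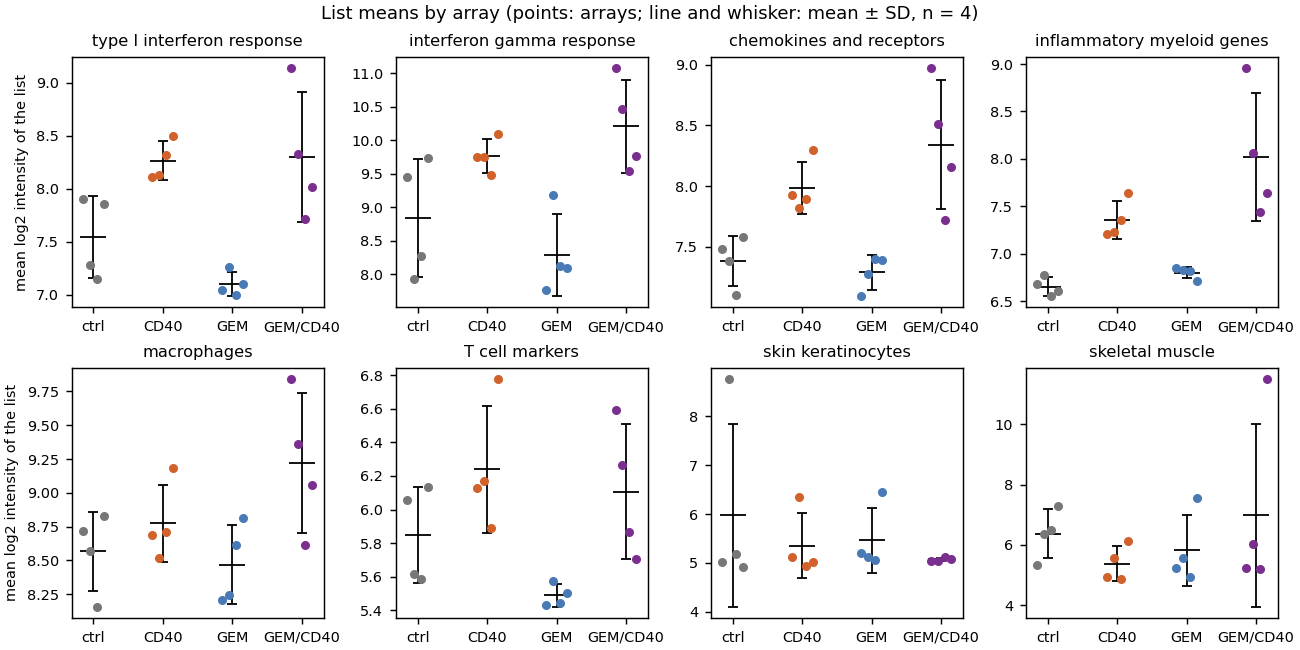
Mean log2 intensity over the measured genes of 8 lists (y axis) in each array. Points are arrays, with replicates 1 to 4 from left to right, the line is the group mean and the whisker the SD (n = 4). Inflammatory myeloid means were between 6.56 and 6.85 in the 8 control IgG arrays and between 7.20 and 8.95 in the 8 anti-CD40 arrays, while skin and muscle genes stood high in single arrays.

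Markers of tissue around a flank tumor stood high in some arrays. The mean of 18 skin keratinocyte genes was 8.77 in control replicate 2, 6.34 in anti-CD40 Ab replicate 2 and 6.46 in GEM replicate 4, against 4.92 to 5.20 in the other arrays, and that of 18 skeletal muscle genes was 11.50 in GEM/anti-CD40 Ab replicate 4 and 7.55 in GEM replicate 4, against 4.89 to 7.29 elsewhere. No gene of either list passed, and their part in the results was not tested beyond 3 settings. Without control replicate 2, anti-CD40 Ab replicate 2 and GEM/anti-CD40 Ab replicate 4, 33 probe sets were higher and 7 lower, 36 of them among the 167 of the full set. That setting kept GEM replicate 4, and without it as well, a setting chosen after seeing the data, 16 were higher and 1 lower, 15 of them among the 167. Of the 9 genes that passed whichever single array was left out, Usp18 (adjusted p = 0.0626), AA467197 (adjusted p = 0.0579) and Trim15 (adjusted p = 0.0579) did not pass without these 4 arrays. With both list means as covariates 19 were higher and 4 lower.

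The count of calls depended on single arrays, as the plot of left-out arrays shows. Without control replicates 1 to 4 in turn the number of probe sets higher was 269, 22, 18 and 226, and the number lower 75, 4, 5 and 43. Without anti-CD40 Ab replicates 1 to 4 it was 40, 174, 34 and 15 higher and 10, 61, 6 and 3 lower. Without GEM replicates 1 to 4 it was 13, 23, 14 and 18 higher and 3, 10, 2 and 6 lower. Without GEM/anti-CD40 Ab replicates 1 to 4 it was 87, 23, 288 and 38 higher and 12, 11, 70 and 8 lower. In each of these 16 fits all 167 probe sets kept their direction and had an unadjusted p under 0.05. They were chosen by passing on these same arrays, so this could hardly have come out otherwise and does not test them. Of the 102 genes, 9 kept an adjusted p under 0.05 throughout, while for the other 93 the highest adjusted p was between 0.0513 and 0.116.

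**Figure D5:**
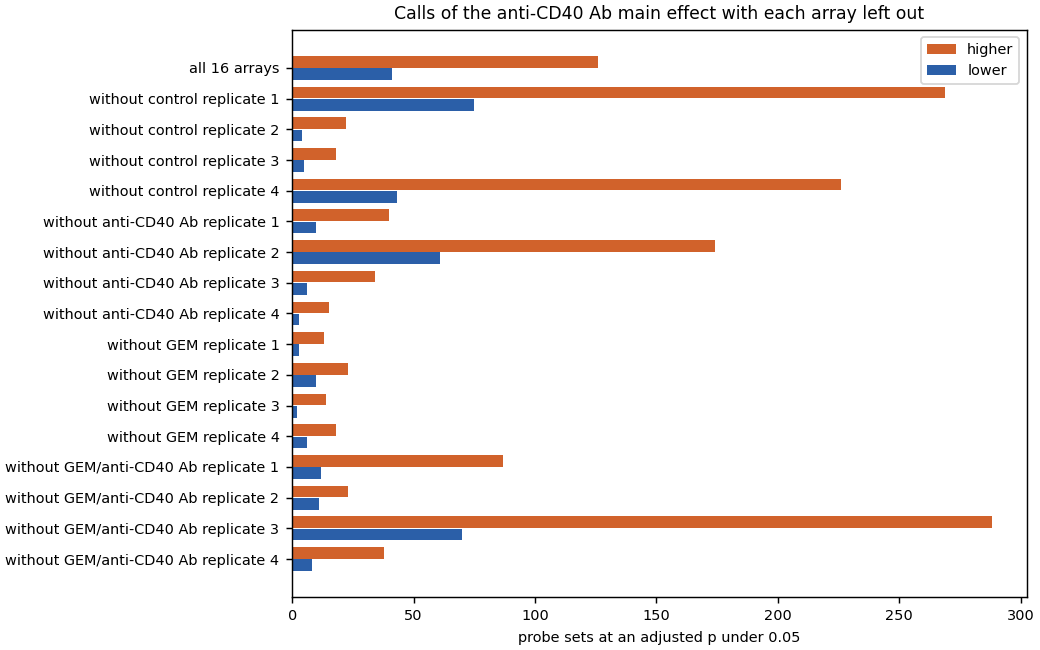
Number of probe sets with an adjusted p under 0.05 (x axis), higher in orange and lower in blue, with all 16 arrays and with each array left out in turn. With all arrays 126 were higher and 41 lower, and the bars run from 13 to 288 higher and from 2 to 75 lower.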

How the data were processed

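RMA, a method of background correction, quantile normalization and probe summary, was run by the authors, who deposited 1 log2 intensity for each probe set, to 2 decimals. Which software version ran RMA, and on which arrays together, is not given in the sources used here. Leaving out 64 AFFX controls, 45037 of 45101 probe sets were tested with no filter. Genes were named through the platform annotation and RefSeq identifiers (GRCm38.p6), and 34945 probe sets had 1 symbol, 932 several and 9160 none. Among the calls, 105 of the 126 higher and 34 of the 41 lower had 1 symbol. Each gene is represented by its brightest probe set on average over the 16 arrays.

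The main effect was fitted over 16 arrays with limma 3.58.1 in R 4.3.3, as an additive model of GEM and antibody with a moderated variance, two-sided, with Benjamini-Hochberg adjustment over the 45037 probe sets. The interaction was fitted over the same arrays, and each background on its own 8. Standard errors are limma's. Groups and replicate numbers come from the labels. The titles of GEM replicates 3 and 4 share an animal number, while the study's methods give 4 mice per group, so both were kept, and a fit with their mean was run. The numbers of arrays limit the precision. The fit was run on simulated arrays with known changes and noise drawn independently for each probe set. Arrays that share an animal or are rich in skin or muscle genes were not simulated, so that run does not cover them.

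Named genes were drawn from, in each direction, the 12 with the largest change that passed and did not overlap in either background, up to 4 members of each list with the smallest p, Cd40, keratins and the 5 smallest interaction p-values in each direction (none passed, and they are not described), and others where the text says more about a list or says that they were picked after their values were seen. Not every gene under this rule is described. The falls left out are Calml4 (-0.47), Slc25a23 (-0.41), Rflna (-0.32), Fam189a2 (-0.28), Poglut3 (-0.23) and 4930443O20Rik (-0.22), and some list members are left out too. The comparison, its gene lists and the rule were chosen with earlier results of these data known. The lists hold 571 genes, of which 509 were measured, and are described by counts and medians with no set test. The lists not described in the text are MEK/ERK output, with a median log2 change of 0.11, adipocytes (0.00) and red blood cells (0.03), and no member passed, and 1 further list and the line's engineered alleles are not reported here. The alternatives were the GEM covariate left out, group means, variance prior, array weights, scaling, quantile normalization, a filter on dim probe sets, probe set choice, a replicate block, left-out arrays, 3 arrays with skin or muscle genes left out (and, chosen after seeing the data, 4), and a log2 change of at least 0.5.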

Additional observations from a re-analysis of the deposited data

Results flagged for a closer look

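In 9 of 224 groups of 4 arrays tested, 1 array stood apart from the other 3 by Dixon's test, which chance alone would flag in about 1 of 20 groups. Acod1 was 8.68 in anti-CD40 Ab replicate 4 and 8.01 to 8.08 in the others, and Shmt1 was 8.48 in GEM/anti-CD40 Ab replicate 2 and 8.27 to 8.30 in the others.

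The other 7 were list means. Skin keratinocyte genes stood at 8.77 in control replicate 2, at 6.34 in anti-CD40 Ab replicate 2 and at 6.46 in GEM replicate 4, and skeletal muscle genes at 11.5 in GEM/anti-CD40 Ab replicate 4, where the others were 5.20 to 6.02. Mitotic cell cycle genes were at 8.79 in GEM/anti-CD40 Ab replicate 3 against 9.50 to 9.62 in the others, and DNA replication genes at 9.81 in GEM replicate 4 against 9.60 to 9.63. Death receptor and pyroptosis genes were at 7.41 in GEM replicate 2 against 7.14 to 7.16.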

How the results depend on the processing

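All 167 probe sets that passed kept their direction in each setting where they could be compared. They were chosen on these same arrays, so little else could have come out. With all arrays 126 were higher and 41 lower. The 8 Vehicle and the 8 GEM arrays alone gave 0 and 0. A trended and robust prior gave 43 and 14, array weights 291 and 79, scaling to the 75th percentile 73 and 49, leaving out probe sets below the median intensity 253 and 74, GEM replicates 3 and 4 averaged 16 and 3, dropping 3 of the 4 skin- or muscle-rich arrays 33 and 7, dropping all 4 (chosen after seeing the data) 16 and 1, and skin and muscle covariates 19 and 4. Requiring a log2 change of at least 0.5 left 13 lower. Single arrays left out gave 13 to 288 higher and 2 to 75 lower. The cause of these differences was not tested. Without the GEM covariate, with 4 group means, with quantile normalization, with gene means and without _x_at and _s_at probe sets, counts were within 1.5 times of the main ones. The interaction was 0 in each setting run. Among 3255 values of the 102 genes, 1494 stayed on their side of the threshold, 1761 no longer passed and 0 turned direction. Of 1023 list medians, 1015 moved by less than the spread between replicates. The red blood cell list gave no median under the intensity filter.

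With a replicate block 43 probe sets were higher and 8 lower, of which 51 were among the 167. Deviations from the group means of same-numbered arrays in different groups correlated with r from -0.266 to 0.273 over 24 pairs, 10 over 0.1. Arrays with different numbers were not compared, so these values cannot tell whether the numbers pair the tumors. The main fit did not treat them as pairs.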
